A study of Mus musculus with 48 samples.

Results

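The effect of BuOE during spaceflight was examined in the hippocampal CA (cornu ammonis, sampled in its CA1 field) of the mouse. Of the 48 areas of illumination (AOIs) in the series, each the RNA probe readout of 1 brain region of 1 mouse, the comparison used the 6 CA AOIs of flight animals, chosen by region and slide label: 3 on the slide of FLT-BuOE mice and 3 on the slide of FLT-SAL mice. All 15782 genes of the CA table were tested. The flight (FLT) mice were male C57BL/6, aged 10 weeks at launch, and spent 35 days in orbit before their brains were taken. BuOE (1 mg/kg in a volume of 0.2 mL) was injected under the skin once a week, with the first dose 7 days before launch, and the SAL mice received saline. After splashdown, up to 20 h passed before the flight animals arrived at the laboratory. Ground controls (GC-BuOE and GC-SAL, 3 mice each) had the same injections and began 3 days later. Since each group was mounted on a slide of its own, slide and BuOE cannot be told apart, and p-values measure only the spread between mice within a slide.

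BuOE, a manganese porphyrin, acts like superoxide dismutase (SOD), the enzyme that turns superoxide into hydrogen peroxide and oxygen. Catalase, glutathione peroxidases and peroxiredoxins then remove the peroxide, and the transcription factor NRF2 drives many genes of this defence. The pyramidal neurons of the CA are the output cells of the hippocampus, are rich in calcium-dependent signaling proteins, and are known for their part in learning and memory. A bulk AOI holds neurons, glia and vessels together, so fewer cells of a type and less RNA per cell cannot be told apart.

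The CA label was checked against marker genes. The summed Q3-normalized count (counts scaled by the upper quartile of each AOI) of 9 CA1 pyramidal markers was 680 to 797 in the 6 flight CA AOIs and 226 to 279 in the flight DG (dentate gyrus) AOIs, and that of 10 granule cell markers was 219 to 284 in CA and 565 to 704 in DG. The total probe count of the FLT-BuOE AOIs was 400989 to 503039, below the 603927 to 948561 of the FLT-SAL AOIs in every mouse (two-sided exact permutation p = 0.1, the smallest that 3 against 3 allows). The upper quartile was 1.98 to 2.48 times the negative-control value in these 6 AOIs, which limits what could be seen of weakly expressed genes. Neither depth nor slide could be separated from BuOE, and their part in the results was not tested.

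One gene passed the test. Cpne7, which encodes a copine, a calcium-dependent phospholipid-binding protein, had Q3-normalized counts of 254, 216 and 256 in the 3 FLT-BuOE mice and 56.5, 84.2 and 98.5 in the 3 FLT-SAL mice. The groups did not overlap, and the mean was 242 ± 22.2 (SD, n = 3) with BuOE and 79.7 ± 21.4 (SD, n = 3) with saline. On the log2(value + 1) scale Cpne7 was higher by 1.62 (SE 0.199, 95% interval 1.23 to 2.02, limma adjusted p = 2.36e-07), which made it the only called gene among those tested (0.00634% called, with the adjusted p below 0.05 and a change of over 1.5-fold required). The call rests on how the spread of this gene was estimated. Its residual SD over the 12 CA AOIs was 0.473 on the log2 scale, in the 94.5th percentile of all genes, and moderation toward the trend of similarly expressed genes brought it to 0.244. With its own SD alone, the 95% interval was 0.73 to 2.51. The adjusted p was 0.299 with limma without the trend, 0.543 with limma's robust prior and 0.2 with DESeq2, and the difference itself stayed between 1.40 and 1.93 under all alternatives. The exact permutation test of this single gene over the 6 mice gave p = 0.1, the smallest it can give.

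In the ground mice Cpne7 read 103, 85.4 and 173 in GC-BuOE and 143, 147 and 322 in GC-SAL, so that the FLT-BuOE values lay inside the range of GC-SAL and 1 of the 3 FLT-SAL values lay inside that of GC-BuOE. Of the 4 groups FLT-SAL was the lowest by mean. FLT-BuOE and GC-SAL had neighbouring means of 242 and 204 ± 102 (SD, n = 3). The BuOE difference on the ground was -0.71 (SE 0.199, limma adjusted p = 0.611), and no gene was called there (0%, with 884 genes or 5.6% at an unadjusted p below 0.05). The test of the difference between both BuOE effects, flight minus ground, gave 2.33 (SE 0.282, limma adjusted p = 1.34e-07). Cpne7 was the only gene called, with 0.00634% called at an adjusted p below 0.05 (851 genes or 5.39% at an unadjusted p below 0.05). With limma's robust prior its adjusted p was 0.907. The flight difference of the same mice is part of this test, so the call gives no independent support. FLT-SAL against GC-SAL, which shares the FLT-SAL mice, gave -1.27 for the same gene.

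Outside the CA, Cpne7 was low. It read 16.7 to 40.02 over the 12 DG AOIs, 34.3 to 80.9 in FCT (frontal cortex) and 27.7 to 52.4 in CT (cortex), with flight BuOE and saline mice overlapping in each of these regions. In DG the flight difference was 0.08 (SE 0.243, limma adjusted p = 0.983), and 0 genes were called in DG (978 or 6.2% at an unadjusted p below 0.05). The difference between the CA and DG effects was 1.54 (SE 0.322), which did not pass the test (limma with the mouse as a block, adjusted p = 0.128), and 0 genes passed it (0% called, 639 or 4.05% at an unadjusted p below 0.05). A further 8 copine genes were measured in CA, and their differences ran from -0.77 for Cpne4 (15, 13 and 7 against 18, 19 and 23) to 0.23 for Cpne6, the neuronal copine (95, 105 and 118 against 66, 104 and 106). None of them passed the test.

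**Figure D1:**
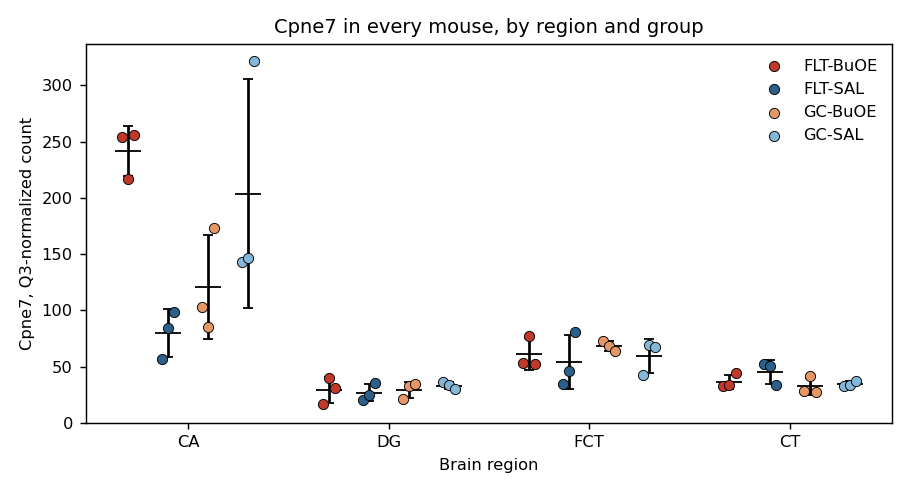
Q3-normalized count of Cpne7 (y axis, linear from 0) in every mouse by brain region and group; points are mice, horizontal bars means and whiskers 1 SD (n = 3). In CA the FLT-BuOE mice, at 216 to 256, lie above the FLT-SAL mice, at 56.5 to 98.5, while the ground groups spread from 85.4 to 322 and the DG values stay at or below 40.02.

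Across all genes more were lower than higher with BuOE. At an unadjusted limma p below 0.05 there were 782 genes (4.96%), of which 200 were higher (1.27%) and 582 lower (3.69%) in FLT-BuOE. With no effect on any gene a share near 0.05 would be expected in all. By sign, 58.1% of genes were lower and 41.9% higher, and the median log2 difference was -0.05, which became -0.004 with edgeR's TMM scaling. Values of the 3 FLT-BuOE mice lay wholly below those of the 3 FLT-SAL mice in 1175 genes (7.45%) and wholly above in 609 genes (3.86%). Both directions together made 11.3%, where 3 against 3 would give a share near 0.1 with no effect. The tilt was largest among the 914 genes over 4 times the negative control by their mean in the 6 flight AOIs. Of these, 14.9% lay wholly below and 3.39% wholly above. The median SE of a gene was 0.257.

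**Figure D2:**
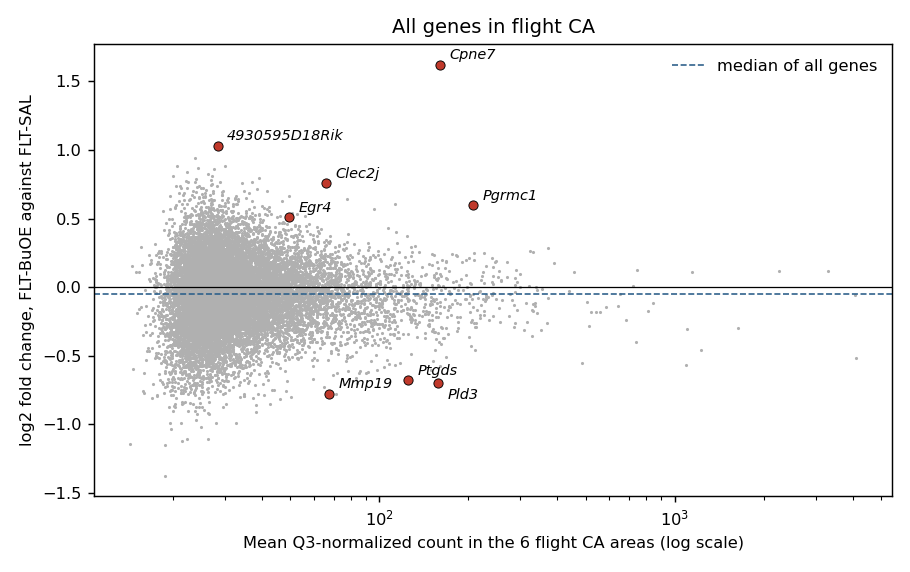
Log2 difference between FLT-BuOE and FLT-SAL in CA (y axis) against the mean Q3-normalized count in the 6 flight AOIs (x axis, log scale), 1 point for each of the 15782 genes, with the 8 genes called by edgeR in red. Cpne7 at 1.62 stands above all other genes, and the dashed line marks the median of -0.05.

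Among well-expressed genes FLT-SAL had more values beyond the other 3 groups than any of them had. Of the 914 genes over 4 times the negative control, 71 were higher in all 3 FLT-SAL mice than in all 9 other CA mice, compared with 6 for FLT-BuOE, 1 for GC-BuOE and 3 for GC-SAL. These genes were chosen by their mean in the flight AOIs alone. A gene raised in FLT-SAL could pass through that group, while a gene raised only on the ground could not. The choice thus favours the flight groups in these counts, also under the other scalings below. The genes lower than in all 9 others numbered 0, 5, 11 and 7 in the same order of groups. Over all genes the contrast was smaller, with 162 above all others for FLT-SAL, 57 for FLT-BuOE, 82 for GC-BuOE and 114 for GC-SAL, and 44, 127, 80 and 85 below. Among the well-expressed genes the count above all others for FLT-SAL was 31 after quantile normalization, 63 after subtraction of the negative control and 44 with scaling by the total gene count, and in each of these scalings it stayed above those of the other groups. The 3 FLT-SAL AOIs held 603927 to 948561 probe counts, and the other 9 held 322629 to 649514. The part of depth in this was not tested.

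A test on counts called more genes than limma. edgeR's quasi-likelihood method called 8 of 15776 genes (0.0507%), 5 higher and 3 lower in FLT-BuOE, and the limma adjusted p of the 7 genes besides Cpne7 was 0.399 or more. In 6 of the 8 the groups did not overlap.

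Pld3, a lysosomal phospholipase D family member that has been studied in Alzheimer's disease, was the most even of them. It read 120, 123 and 118 with BuOE and 192, 201 and 195 with saline, against 96.9 to 177 in the 6 ground mice, and was lower by an edgeR log2 change of -0.66 (adjusted p = 0.0489). Both flight groups were tight, and FLT-SAL lay above all 9 other mice. Pld3 also passed limma's test when the fit held the 6 flight AOIs alone (adjusted p = 0.0385). Its edgeR call was lost when any 1 of the 6 flight mice was left out (adjusted p 0.137 to 0.36, log2 change -0.64 to -0.68).

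Ptgds, the prostaglandin D2 synthase made by oligodendrocytes and the leptomeninges, read 86.9, 93.4 and 108 with BuOE and 131, 166 and 168 with saline. The edgeR log2 change was -0.66 (adjusted p = 0.0489). The 6 ground mice lay at 45.7 to 80.0, below all flight mice, so the FLT-BuOE values sat between FLT-SAL and ground. In DG the flight difference ran the other way, with 150, 154 and 110 for BuOE against 86.0, 123 and 91.5 for saline (log2 0.46, SE 0.186, not past the limma test). The difference between both regions did not pass either (-1.14, limma adjusted p = 0.476). In CT the values were 156, 207 and 151 with BuOE against 301, 400 and 274 with saline, without overlap, and in FCT 252, 247 and 214 against 384, 524 and 250, so both cortical regions had the lower values with BuOE, as in CA.

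Pgrmc1, a heme-binding membrane protein of the progesterone receptor component family, read 312, 236 and 205 with BuOE against 198, 167 and 131 with saline (edgeR log2 change 0.67, adjusted p = 0.0393). The lowest BuOE mouse lay just above the highest saline mouse, and the 6 ground mice spanned 145 to 222. Clec2j, annotated as an unprocessed pseudogene of the C-type lectin family, so that its probe may read a related gene, was at 104, 78.6 and 67.9 against 63.6, 40.02 and 43.9 (edgeR log2 change 0.84, adjusted p = 0.0393). 4930595D18Rik, a gene of unassigned function near the negative-control level, was at 35.9, 34.1 and 45.2 against 23.5, 16.4 and 15.4 (edgeR log2 change 1.12, adjusted p = 0.0489).

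The remaining 2 calls each rested on 1 mouse. Mmp19, a matrix metalloproteinase, read 196 in 1 FLT-SAL mouse and 26.7 to 62.7 in the other 11 CA AOIs. Egr4, an activity-induced transcription factor, read 128 in 1 FLT-BuOE mouse and 23.1 to 42.3 in the other 11. Calls by edgeR were sensitive to single mice in general: without FLT-SAL mouse 2 only Cpne7 was called, and without FLT-BuOE mouse 1 only Cpne7 and Pop1, while Cpne7 was called in all 6 of these refits.

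**Figure D3:**
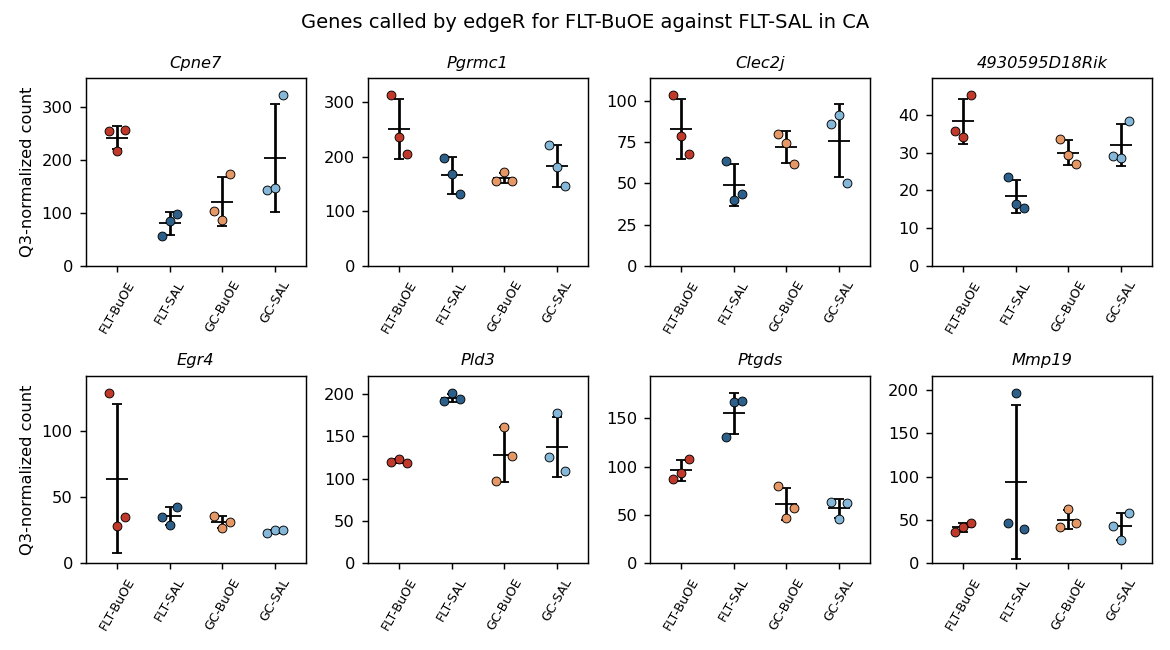
Q3-normalized counts (y axes, linear from 0) in CA of the 8 genes called by edgeR, by group; points are mice, bars means and whiskers 1 SD (n = 3). Pld3 and Ptgds are lower in all FLT-BuOE mice than in all FLT-SAL mice, Pgrmc1, Clec2j and 4930595D18Rik are higher, and the single high points of Egr4 (128) and Mmp19 (196) are visible.

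No gene of the antioxidant lists passed the test. Sod1, the cytosolic superoxide dismutase, read 80.0, 119 and 101 with BuOE and 96.5, 101 and 100.1 with saline, a log2 difference of -0.01 with a 95% interval of -0.35 to 0.34. The BuOE mice spread around the saline mice. Sod2, the mitochondrial enzyme, read 59.3, 74.1 and 66.1 against 91.8, 72.9 and 73.1 (-0.25, interval -0.64 to 0.15). Catalase (Cat) read 30.4, 23.7 and 27.8 against 27.1, 34.9 and 26.2, which is close to the negative control, so its interval of -0.59 to 0.40 says little. All 3 overlapped between groups. Gpx4, the lipid hydroperoxide peroxidase, differed by 0.05 (interval -0.29 to 0.39). Of 18 measured genes of superoxide and peroxide removal, 13 were lower by sign (median -0.10, against -0.05 over all genes) and 0 had an unadjusted p below 0.05. Of 21 NRF2 and glutathione genes, 14 were lower (median -0.12) and again 0 reached that level. Among them the iron store Fth1 differed by 0.01 (interval -0.27 to 0.29), Gstp1 by -0.10, the NRF2 target Nqo1 by -0.39 (interval -0.88 to 0.10) and Hmox1 by 0.21 (interval -0.32 to 0.75). Of 13 genes for sources of superoxide and nitric oxide, 7 were lower (median -0.07), with Nos1 at 0.10 and Nox4 at -0.31.

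No gene of energy metabolism passed the test. Of 76 oxidative phosphorylation genes 59 were lower by sign (median -0.12), 4 of them at an unadjusted p below 0.05 (5.26%, against 3.69% of all genes), and 9 lay wholly below FLT-SAL (11.8%, against 7.45% of all genes and 14.9% of those over 4 times the negative control), shares near the background. Of its most abundant members, both subunits of cytochrome c oxidase, Cox6a1 was at 192 ± 33.8 against 234 ± 14.8 and Cox8a at 191 ± 15.6 against 228 ± 5.21 (SD, n = 3). Of 26 genes of glycolysis and pyruvate metabolism 21 were lower (median -0.19), 1 at an unadjusted p below 0.05 (3.85%), with Gapdh at -0.12 and Eno2 at -0.20. With edgeR's scaling 51 and 19 were lower.

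The calcium and calmodulin signaling list held kinases, phosphatases, channels and calmodulin-binding proteins of excitatory neurons. Of 30 measured genes 27 were lower by sign, 12 at an unadjusted p below 0.05 (40%, against 3.69% of all genes and 9.96% of those over 4 times the negative control), 11 lay wholly below FLT-SAL (36.7%, against 7.45% and 14.9%), and 0 passed the adjusted test. The list's median was -0.25, it lay between -0.16 and -0.28 under the other scalings, and it was -0.01 for BuOE on the ground and -0.21 in flight DG. Nrgn, the postsynaptic calmodulin store neurogranin, read 1373, 1671 and 1345 with BuOE and 1792, 2021 and 1583 with saline (log2 difference -0.30, SE 0.140, limma adjusted p = 0.99), so 1 BuOE mouse overlapped the saline mice. Hpca, the calcium sensor hippocalcin, read 587, 755 and 576 against 864, 886 and 772 (-0.40, SE 0.144, limma adjusted p = 0.862). Its groups did not overlap, and the ground mice lay at 402 to 616. Camk2a, the abundant kinase subunit, was at 627, 710 and 576 against 572, 753 and 665 and showed no such separation (-0.05, interval -0.34 to 0.23), while Camk2b, its partner, was at 131, 206 and 202 against 232, 243 and 250 (-0.45, limma adjusted p = 0.776).

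No member of the cytoskeletal, synaptic and chaperone lists passed the limma test. Of 21 actin and tubulin genes 16 were lower (median -0.20), 6 at an unadjusted p below 0.05 (28.6%) and 8 wholly below (38.1%), beside the same shares of all genes and of well-expressed genes as above. Actb read 262, 313 and 291 against 377, 377 and 354 (limma adjusted p = 0.931), and Actg1 259 ± 42.2 against 314 ± 14.4 (SD, n = 3). Of 8 pan-excitatory genes all were lower by sign (median -0.22), 7 with edgeR and 6 after quantile normalization. Of 23 synaptic vesicle genes 19 were lower (median -0.10), though the abundant Syp and Vamp2 differed by only -0.10 and -0.07. Glutamate and GABA receptors were near the median of all genes, with 13 of 24 lower (median -0.04), Grin2a at -0.19 and Grin1 at -0.12. Of 22 heat shock and chaperone genes 19 were lower (median -0.22), 4 at an unadjusted p below 0.05 (18.2%, against 3.69% of all genes and 9.96% of well-expressed genes). Of the lower genes, Hsp90ab1 read 131, 142 and 137 against 180, 188 and 175, and Hspa8 105, 119 and 94.0 against 162, 170 and 118 (limma adjusted p = 0.931 and 0.722). Of 15 amyloid and apolipoprotein genes 12 were lower (median -0.20), with App at -0.18 and Aplp1 at 0.01, and Ptgds is a member of this list.

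**Figure D4:**
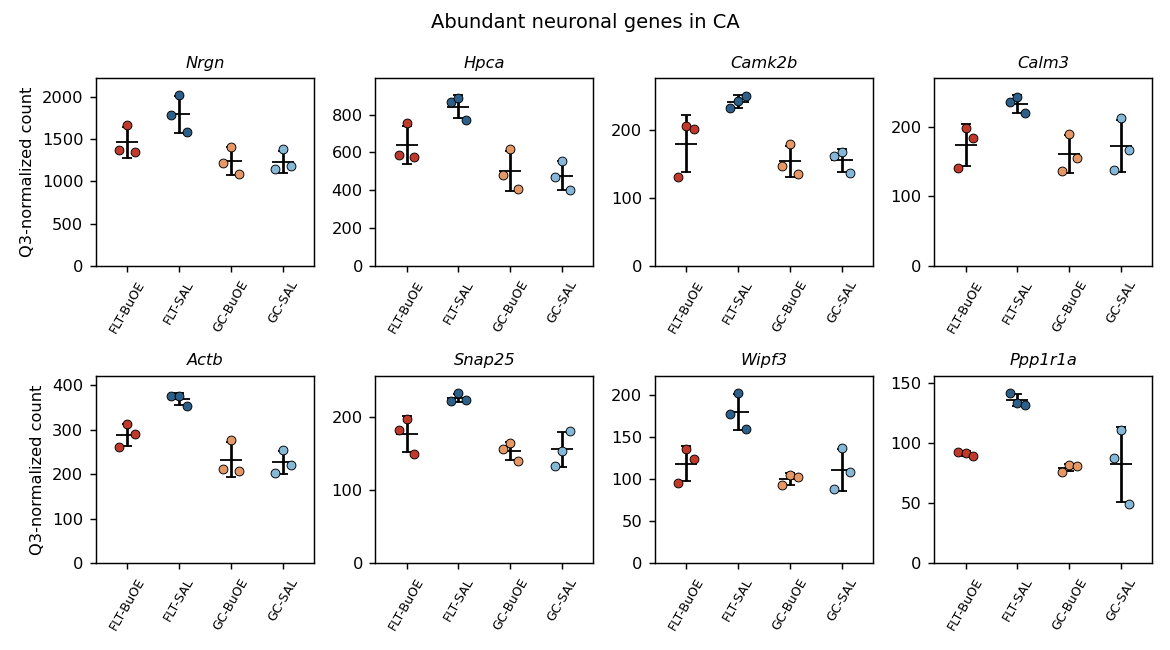
Q3-normalized counts (y axes, linear from 0) in CA of 8 neuronal or cytoskeletal genes by group; points are mice, bars means and whiskers 1 SD (n = 3). For Hpca, Camk2b and Actb all FLT-SAL mice lie above all other mice, with the FLT-BuOE mean between theirs and those of the ground groups, and no gene shown passed the adjusted test. The 8 genes were chosen after their values were seen.

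Markers of cell types moved in part with the groups. The summed CA1 markers were 680 to 716 in FLT-BuOE and 761 to 797 in FLT-SAL without overlap, against 597 to 759 in the ground mice. Such a gap was not particular to them. Sums of oxidative phosphorylation (4869 to 5151 against 5342 to 5511) and apoptosis genes (604 to 614 against 635 to 719) did not overlap either. Those of astrocyte genes did (602 to 722 against 619 to 824). The lowest CA1 marker was Pou3f1 at -0.56 (87.0 ± 12.5 against 128 ± 13.5, SD, n = 3), with Wfs1 at -0.44 and Mpped1 at -0.12. Of the 9 markers 6 were lower and 3 higher by sign (median -0.12). Wholly below FLT-SAL lay 2 (22.2%, against 7.45% of all genes), and 1, Man1a (0.37), lay wholly above, as did 3.86% of all genes. The shift depended on the scaling. With edgeR's scaling and after quantile normalization 5 were lower and 4 higher (medians -0.09 and -0.04). The 11 CA3 and CA2 markers, 5 lower and 6 higher (median 0.002), summed to 257 to 305 and 290 to 311 (Bok -0.26, Pcp4 -0.26, Grik4 0.65), and the 10 granule cell markers to 236 to 284 and 219 to 276 (Prox1 0.49, interval -0.01 to 0.99, Pdzd2 0.17), both with overlap. All 12 myelin genes were lower by sign in CA under every scaling (median -0.22), while their median in flight DG was 0.17. In CA 1 of them had an unadjusted p below 0.05 (8.33%, against 3.69% of all genes and 9.96% of well-expressed genes). The myelin sums were 638 to 691 with BuOE and 684 to 875 with saline, with Mobp at -0.34. Of 11 interneuron genes 7 were lower and 4 higher (median -0.19). Wholly below FLT-SAL lay 2 (18.2%, against 7.45% of all genes), and 1 lay wholly above (3.86% of all genes did). The lowest was Gad1, the GABA-synthesizing enzyme, at 35, 30 and 44 against 60, 62 and 60 (-0.76, limma adjusted p = 0.423). The highest was Sst at 0.50. The part of these markers in the lists above was not tested.

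Glial, vascular and border markers showed no called member. Of 14 astrocyte genes 11 were lower (median -0.21, Slc1a2 -0.21, Aldoc -0.26), of 10 microglial genes 8 (median -0.14, C1qc 0.42, P2ry12 -0.58), and of 11 vessel wall genes 8 (median -0.12, Ly6c1 0.09, Cldn5 -0.18). Of 7 oligodendrocyte precursor genes 2 were lower (median 0.02, Olig2 0.16, Cspg5 0.01), and of 10 choroid plexus and meningeal genes 4 (median 0.06, Kl 0.37, Lum 0.04). The 2 measured blood genes were lower by sign, Hba-a1 at 46, 31 and 19 against 81, 50 and 33 and S100a9 at -0.19.

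**Figure D5:**
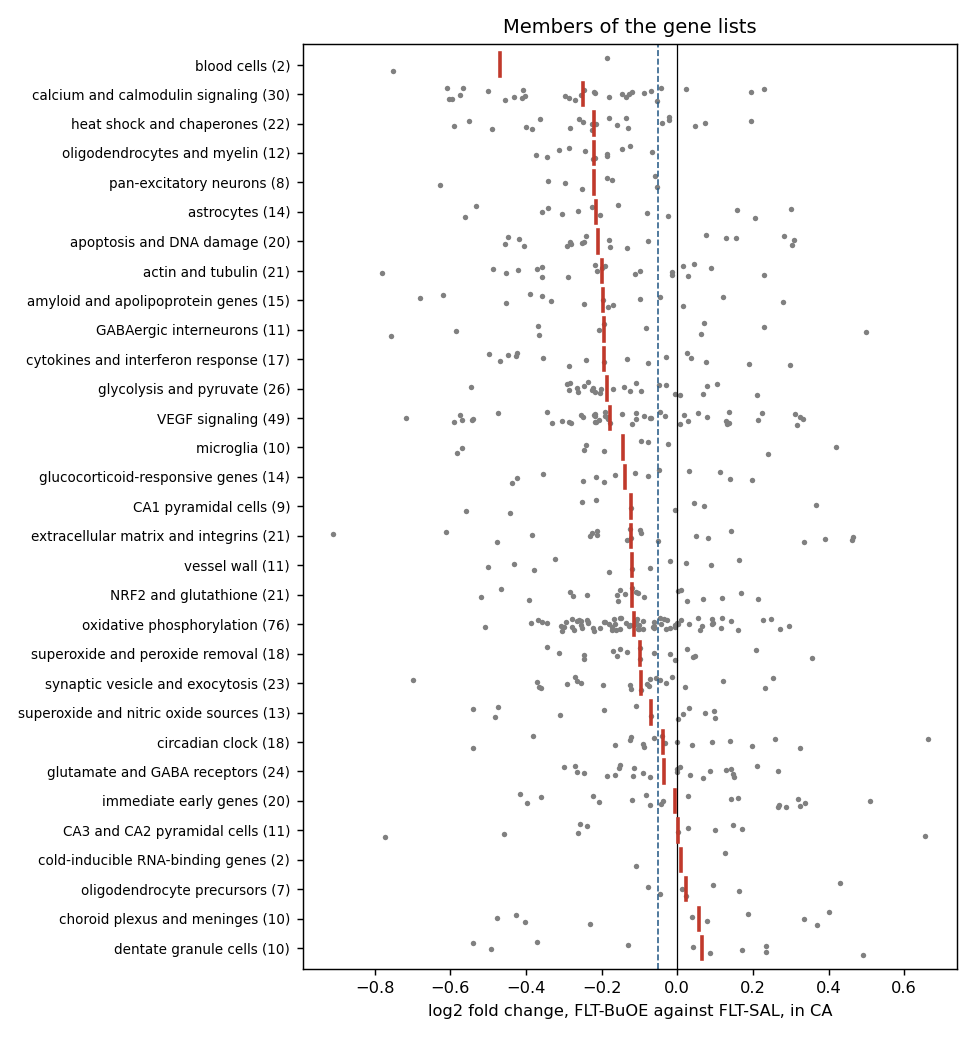
Log2 difference between FLT-BuOE and FLT-SAL in CA (x axis) of each measured member (grey points) of 31 gene lists (y axis, number measured in parentheses), with the list median as a red bar, 0 as a solid line and the median of all genes as a dashed line. Apart from the 2 blood genes, calcium and calmodulin signaling has the lowest median on this scaling, -0.25, and no member of any list passed the limma test. The rank changed with the scaling. After quantile normalization the myelin median was -0.167 against -0.165 for calcium signaling. After subtraction of the negative control the interneuron median was -0.50 against -0.28.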

How the data were processed

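RNA was profiled in situ with the GeoMx platform, in which DNA-tagged probes hybridized to a tissue section are released by UV light from a chosen area and sequenced. The authors made raw counts per probe with the GeoMx NGS Pipeline (version 2.3.4 per the file headers) and deposited them without normalization. The authors also scaled each AOI by its upper quartile and deposited this Q3-normalized signal per gene, 1 table for each region. Columns of the authors' own comparisons (fold changes and p-values) were not used.

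limma 3.58.1 (R 4.3.3) was fitted to log2(Q3-normalized value + 1) of the 12 CA AOIs with the group as factor (8 residual degrees of freedom, trended empirical Bayes), with Benjamini-Hochberg adjustment over 15782 genes. No filter on low values was used. A call needed an adjusted p under 0.05 and, for FLT-BuOE against FLT-SAL, a change of over 1.5-fold. A fold change on this scale understates that of low genes. Dividing values by the step of each AOI returned whole counts (within 0.02) for 15776 genes, which were tested with edgeR 4.0.16 and DESeq2 1.42.0 as alternatives. The statistical scripts were tested on simulated counts. Replicate numbers came from the labels and name different animals. AOIs of the same group and number lay near each other on the slide (1332 to 8405 position units, against 11256 or more between numbers), and were taken as 1 mouse for the comparison of CA with DG.

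The comparison and the 31 gene lists were chosen with earlier results of these data known, so the lists give no independent support. Genes named are called genes, the 2 most abundant members of each list without a called gene, and Sod1, Sod2 and Cat. Some genes of this rule are not reported here. Sod3 was not analysed here. Genes called by edgeR, the copines, Nqo1, Hmox1, Camk2b, Man1a, Pou3f1, Grik4, Sst and Pop1 were added after their values were seen.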

Additional observations from a re-analysis of the deposited data

Results flagged for a closer look

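Cpne7 is the result to look at again, because its BuOE effect differed between flight and ground by 2.33 on the log2 scale (SE 0.282, limma adjusted p = 1.34e-07). It was higher with BuOE in flight in all 3 mice than in any saline mouse, by 1.62, and differed by -0.71 on the ground, where the groups overlapped. The difference between both effects contains the flight difference and is no independent finding. It ran from 1.95 to 2.63 under the alternatives. With limma's robust prior its adjusted p was 0.907. DESeq2 and limma without the trend, which lost the flight call, were not run for this difference. The highest GC-SAL mouse read 322 against 143 and 147 in the others of its group, and without it the difference between both effects was 1.95.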

How the results depend on the processing

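Both the count of genes and the Cpne7 call depended on the test. For FLT-BuOE against FLT-SAL, 1 gene was called, and 8 were with edgeR (5 higher, 3 lower), 2 with the 6 flight AOIs alone, 0 with DESeq2 (245 at an unadjusted p below 0.05) and 0 with limma without the trend (743). A pseudocount of 5, the filter, quantile normalization, subtraction of the negative control and no fold threshold each called 1. Leaving out single mice gave 1 to 2 genes (2 without FLT-BuOE mouse 3). Alternatives added after seeing the data gave 0 with the robust prior (791 at an unadjusted p below 0.05), 9 with edgeR on the 6 flight AOIs and 1 to 8 with edgeR without single flight mice (2, 5 and 8 without FLT-BuOE mice 1, 2 and 3, and 8, 1 and 2 without FLT-SAL mice 1, 2 and 3). For the difference between flight and ground, edgeR called 4, the robust prior 0 (842 at an unadjusted p below 0.05), and leaving out mice 1 to 4 (4 without GC-BuOE mouse 3). For CA minus DG, a pseudocount of 5 called 1, and leaving out mice gave 0 to 1 (1, Cpne7, without FLT-BuOE mouse 2). The causes were not tested.

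The replicate block gave 2 genes with limma (Cpne7 and Pld3) and, added later, 11 with edgeR, and for the difference between flight and ground it gave 1. Same-numbered AOIs of different groups deviated from their group means with correlations of 0.0008 to 0.0358 (18 pairs, median 0.0154). Differently numbered AOIs had correlations of -0.0245 to 0.016 (36 pairs, median -0.0103). All were small, but the same-numbered ones tended to be higher. Whether the numbers pair the mice was not tested.

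Cpne7 kept its sign under every alternative listed here. Of the genes called by edgeR, Egr4 went from 0.92 to -0.17 in edgeR without FLT-BuOE mouse 1, and Mmp19 from -1.12 to 0.0003 without FLT-SAL mouse 2. The lower depth of the FLT-BuOE AOIs and an upper quartile near the negative control limit the precision of low genes.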

Other observations

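Among immediate early, glucocorticoid-responsive, clock and cold-inducible genes no member passed the limma test, and edgeR called 1, Egr4, which rested on 1 mouse. Of 20 immediate early genes 10 were lower by sign (median -0.005). Arc, the activity-regulated cytoskeletal gene, read 121, 119 and 122 with BuOE and 145, 109 and 122 with saline, while the 6 ground mice lay at 173 to 273, above both flight groups. Egr1 differed by -0.40 (interval -0.75 to -0.05, limma adjusted p = 0.971). Of 14 glucocorticoid-responsive genes 10 were lower (median -0.14, Mt1 -0.11, Nr3c1 0.03), and of 18 clock genes 11 (median -0.04, Dbp 0.14, Per1 0.20). The cold-inducible Rbm3 and Cirbp differed by 0.13 and -0.11.

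Of 49 VEGF signaling genes 34 were lower (median -0.18), 4 at an unadjusted p below 0.05 (8.16%, against 3.69% of all genes and 9.96% of well-expressed genes). Prkcb differed by -0.25 and Ppp3ca by -0.22. Of 17 cytokine and interferon genes 12 were lower (median -0.19, B2m -0.43, Nfkb1 0.03), of 21 extracellular matrix and integrin genes 14 (median -0.12, Sv2a -0.12, Sdc4 0.05), and of 20 apoptosis and DNA damage genes 14 (median -0.21, Parp1 -0.24, Mdm2 0.16). In each of these lists 0 genes passed the limma test.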
